A study of Mus musculus with 6 samples.

Results

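The genes described here encode molecules that display peptides to T cells, with their loading machinery and their 2 dedicated transcriptional activators. They were the rows of the deposited count table whose gene name was Cd74, H2-K1, H2-D1, B2m, Tap1, Tap2, Tapbp, Nlrc5, Ciita or H2-Aa, and 9 of these 10 names had a row among 41921 rows in all. H2-D1 had no row under its own name, and rows whose deposited protein match names it are described separately below. Counts were available for 6 libraries of RAW264.7, a wild-type mouse monocyte/macrophage line that the cytokine RANKL can drive towards osteoclasts. The labels assign 3 libraries to albiflorin, a glycoside found in peony roots, and 3 to RANKL. The protocol text names RANKL at 50 ng/mL, given to cells 3 days after confluence, for all 6 libraries. Whether the albiflorin cells received RANKL as well is stated nowhere else, and neither is how much albiflorin was given or for how long. No untreated library was analysed here. All 6 libraries come from the same cell line, and the labels do not call the replicates separate cultures, so p-values reflect library-to-library spread alone, which may be technical.

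MHC class I molecules are made by nearly every nucleated cell. A heavy chain (such as H2-K1 or H2-D1 in the mouse) pairs with beta-2-microglobulin (B2m) and takes up peptides cut from cytosolic proteins by the proteasome. The transporter formed by Tap1 and Tap2 pumps those peptides into the endoplasmic reticulum, and tapasin (Tapbp) bridges the transporter to the empty class I molecule. MHC class II molecules (H2-Aa encodes one of their alpha chains) are made mainly by dendritic cells, B cells and activated macrophages, and carry peptides from the endocytic route. Cd74, the invariant chain, guides class II molecules to that route. Nlrc5 is the co-activator of class I transcription and Ciita that of class II transcription, and neither binds DNA itself: both work through a factor complex on the conserved W/S, X and Y boxes of these promoters.

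Library totals lay between 13673284 and 15489482 counts. RAW264.7 derives from BALB/c, a strain with the d haplotype of the MHC, whereas the gene identifiers of the table carry the prefix of C57BL/6NJ, a strain with the b haplotype, so reads that carry BALB/c variants may be undercounted, and copies of class I genes can share reads. Macrophage markers held 3450 to 3565 CPM (normalised read counts) in albiflorin libraries and 3430 to 3647 CPM in RANKL libraries, although Itgam had 0 or 1 count per library. Csf1r made up much of that sum, Adgre1 was lower with albiflorin (-0.30, edgeR adjusted p = 0.00933) and Tyrobp was higher (0.41, adjusted p = 0.0022). Among osteoclast markers Ctsk had 8 to 14 counts in albiflorin libraries and 5 to 8 in RANKL libraries, and Calcr had 0 in all. The direction of change across all genes followed transcript length: the median log2 fold change of albiflorin over RANKL was 0.37 for protein-coding genes with an mRNA under 1000 bases and -0.29 for those of 8000 bases or more. Each member is therefore given in the plain fit and with this length trend removed. Of the macrophage markers above, with the trend removed Adgre1 stayed lower (-0.27, edgeR adjusted p = 0.0151). Tyrobp was no longer called (-0.03, adjusted p = 0.76).

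Promoter sequence is shown for the classical class I members, H2-K1 and H2-D1, and for Tap1. The stretch upstream of Tap1 is shared with a neighbour, Psmb9, whose values are set beside its own below. Likeness between the H2-K1 and H2-D1 promoters does not measure how far reads of these genes are shared. Each line gives the 190 bases directly upstream of the RefSeq start, 5′ to 3′ on the gene's strand, from the C57BL/6J reference GRCm38.p6. Where RefSeq gives several starts the last listed was used, which for H2-K1 is the most downstream. H2-K1 lies at chr17:34000334-34000523 on the minus strand, H2-D1 at chr17:35262904-35263093 on the plus strand and Tap1 at chr17:34187366-34187555 on the plus strand. Capitals mark the longest run of bases that the H2-K1 and H2-D1 windows have in common.
H2-K1: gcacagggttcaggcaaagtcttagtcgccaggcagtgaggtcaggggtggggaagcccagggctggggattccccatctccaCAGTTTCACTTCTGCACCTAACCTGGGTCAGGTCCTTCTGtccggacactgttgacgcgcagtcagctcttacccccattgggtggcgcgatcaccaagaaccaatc
H2-D1: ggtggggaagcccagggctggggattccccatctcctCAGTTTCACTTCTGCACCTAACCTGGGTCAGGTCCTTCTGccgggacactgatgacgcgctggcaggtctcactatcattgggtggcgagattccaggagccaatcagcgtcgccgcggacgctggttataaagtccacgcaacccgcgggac
Tap1: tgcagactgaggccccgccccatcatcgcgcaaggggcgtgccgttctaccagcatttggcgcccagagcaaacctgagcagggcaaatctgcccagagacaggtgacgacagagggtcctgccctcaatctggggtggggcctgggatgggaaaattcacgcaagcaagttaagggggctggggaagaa

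The shared run is 40 bases long. It begins 107 bases upstream of the H2-K1 start and 153 bases upstream of the H2-D1 start. Aligned on it without gaps, the windows were identical at 120 of 144 bases. Of 32851 RefSeq promoter windows of this length 3 held the run on either strand (0.00913%), and all belonged to H2-K1 or H2-D1. This describes the reference sequence, and no binding was measured.

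Per length, B2m was the most abundant member and Ciita the least. B2m averaged 2324 ± 219 FPKM (read counts scaled by gene length and library size, made by the authors) in albiflorin libraries and 1807 ± 73.7 FPKM in RANKL libraries (SD, n = 3 each), and its mean level ranked 9 of 13158 tested genes. Cd74 ranked 50 with 793.8 ± 22.4 FPKM in albiflorin libraries and 593.2 ± 17.4 FPKM in RANKL libraries. H2-K1 ranked 667, Tapbp 785, Tap1 4132, Tap2 4853, Nlrc5 6876, H2-Aa 10418 and Ciita 11651. In albiflorin libraries each member's range of FPKM stood apart from its neighbours' in this order. In RANKL libraries the ranges of Tapbp and H2-K1 overlapped, at 67.63 to 74.67 FPKM for Tapbp and 56.23 to 75.75 FPKM for H2-K1, and Tapbp had the higher mean. Cd74 lay between 581.1 and 819.2 FPKM over all libraries, while the class II chain it serves, H2-Aa, stayed between 2.128 and 2.515 FPKM in albiflorin libraries and 1.443 and 2.078 FPKM in RANKL libraries.

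**Figure D1:**
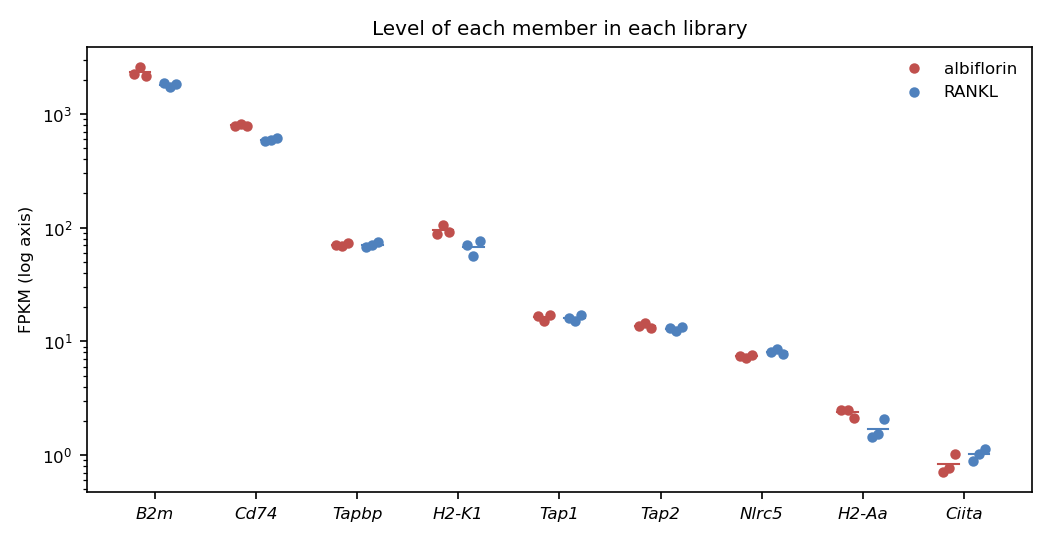
FPKM of the 9 members (log axis) in each albiflorin library (left of each pair) and each RANKL library (right), with a line at each group's mean. Members run from B2m, between 2154 and 2571 FPKM in albiflorin libraries, to Ciita, between 0.7091 and 1.024 FPKM in albiflorin libraries. The groups do not overlap for B2m, Cd74, H2-K1, Nlrc5 and H2-Aa.

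H2-K1, B2m and Cd74 were higher with albiflorin, and no member was lower (edgeR quasi-likelihood test, Benjamini-Hochberg adjusted p under 0.05). All 9 members passed the filter on low counts. The 3 higher members compare with 12.4% of all 13158 tested genes called higher, and the 0 lower members with 11.4% called lower (23.8% in either direction). The median log2 fold change was 0.10 over the 9 members and 0.01 over all tested genes. With the trend of counts on mRNA length removed, 2 members were higher and 0 lower, where 4.84% of all genes were called higher and 5.4% lower (10.2% in either direction), and the median was 0.09 over the members and -0.02 over all genes. With the trend on listed gene length removed 2 members were again higher and 0 lower, where 7.18% of all genes were called higher and 7.96% lower (15.1% in either direction). Without adjustment at the same threshold 4 members passed as higher in edgeR, H2-Aa being the addition, and 0 as lower; DESeq2 also called 0 lower. The libraries of the groups did not overlap for 4 members that were higher and 1 that was lower with albiflorin, where 20.8% and 19.3% of all genes did not overlap in those directions (40.1% in either).

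Among the class I heavy chains, H2-K1 (MGP_C57BL6NJ_G0023956, chromosome 17, 35236550 to 35247973 in the deposited table, minus strand) had 229, 275 and 241 CPM in albiflorin libraries and 186, 147 and 199 CPM in RANKL libraries. Every albiflorin library was above every RANKL library, and RANKL replicate 2 was the lowest. The means were 248.6 ± 23.8 CPM with albiflorin and 177.2 ± 26.8 CPM with RANKL, a log2 fold change of 0.49 ± 0.0936 (SE; edgeR, adjusted p = 0.0019). H2-K1 remained higher with mRNA length taken into account (0.32, edgeR adjusted p = 0.0144) and with the trend on the listed gene length removed (0.39, adjusted p = 0.00396). It was called under all other settings tried, with log2 fold changes between 0.32 and 0.58.

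The other classical heavy chain among the members, H2-D1, was sought through the deposited protein matches, since no row bears its name. A list of classical heavy chains held 3 symbols, of which 1, H2-K1, had a row. Of 9 rows without a symbol that were matched to H2-D1, 3 were additional rows that lie side by side on the plus strand of chromosome 17, between 36772515 and 36779310. They follow Ddx39b, which is the coding gene before H2-D1 in RefSeq, so they are described here as rows matched to H2-D1 and not as the gene itself. Reads of other class I genes of the d haplotype may lie in them as well, which was not tested. The last of them, of 910 bases, had 848, 962 and 768 CPM in albiflorin libraries and 668, 588 and 656 CPM in RANKL libraries. All 3 albiflorin libraries were above the RANKL libraries, and the log2 fold change was 0.43 ± 0.0797 (SE; edgeR, adjusted p = 0.00157). The first, of 275 bases, had 143, 111 and 125 CPM in albiflorin libraries and 152, 100 and 135 CPM in RANKL libraries. Its groups overlapped, and its log2 fold change was -0.03 ± 0.117 (SE; edgeR, adjusted p = 0.885). The middle row, of 481 bases, had 10.3 to 12.9 CPM in albiflorin libraries and 9.76 to 13.8 CPM in RANKL libraries, which overlapped.

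The 3 rows of this stretch were not called alike. The count of the 910-base row over that of the 275-base row was 5.93, 8.69 and 6.12 in albiflorin libraries and 4.38, 5.86 and 4.84 in RANKL libraries, a comparison chosen after the values were seen. The groups did not overlap (exact permutation test, two-sided, p = 0.1, the smallest that 3 against 3 libraries allow). Summed into 1 feature of 1666 bases before the fit, the 3 rows had 1003, 1083 and 905.9 CPM in albiflorin libraries and 829.7, 702.1 and 801.6 CPM in RANKL libraries, and again every albiflorin library was higher. The log2 fold change of the sum was 0.36 ± 0.0778 (SE; edgeR, adjusted p = 0.00393), and 0.20 once the mRNA-length trend was removed (adjusted p = 0.0353). With the trend on listed gene length removed the sum was 0.16 and no longer called (adjusted p = 0.0729). Row by row, removing the mRNA-length trend ended the call for the 910-base row (0.11, adjusted p = 0.19) and put the 275-base row among the lower rows (-0.56, adjusted p = 0.0102). These rows have no annotated mRNA, so the fit took the length of each piece.

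The ratio of H2-K1 to the 910-base row was 0.27, 0.286 and 0.314 in albiflorin libraries and 0.278, 0.25 and 0.303 in RANKL libraries. These ranges overlapped (log2 difference 0.07, exact permutation test, two-sided, p = 0.5). In all, 34 rows carried a protein match to a class I heavy chain, of which 21 had a count and 14 were tested; H2-T24 is not among them and is given below with the non-classical genes. Of these 14 rows 3 were higher (H2-K1, the 910-base row and H2-M3) and 0 were lower, beside 12.4% and 11.4% of all genes. With the mRNA-length trend removed 1 row was higher (H2-K1) and 2 were lower, where 4.84% of all genes were called higher and 5.4% lower. With the gene-length trend removed the counts were the same, beside 7.18% higher and 7.96% lower. In both fits the lower rows were the 275-base row and a 754-base row matched to H2-Q7. The latter was at -0.27 with the mRNA-length trend removed (edgeR adjusted p = 0.0211). Neither row has an annotated mRNA, so both fits took the length of the piece, and the CPM of each overlapped between groups. Summed, the matched class I rows held 1456, 1562 and 1383 CPM in albiflorin libraries and 1233, 1050 and 1184 CPM in RANKL libraries, a ratio of means of 1.27. The sum was higher in each albiflorin library than in any RANKL library. It is the same however counted reads were divided between the listed copies, but reads counted in no row are missing from it. No length trend was removed from this sum. Its largest row, of 910 bases, lost its call with the mRNA-length trend removed (0.11, edgeR adjusted p = 0.19). Additional rows without a symbol held 73.7 to 76.1% of these reads in albiflorin libraries and 74.2 to 77.1% in RANKL libraries, so most counted class I reads lay in rows without a gene name.

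**Figure D2:**
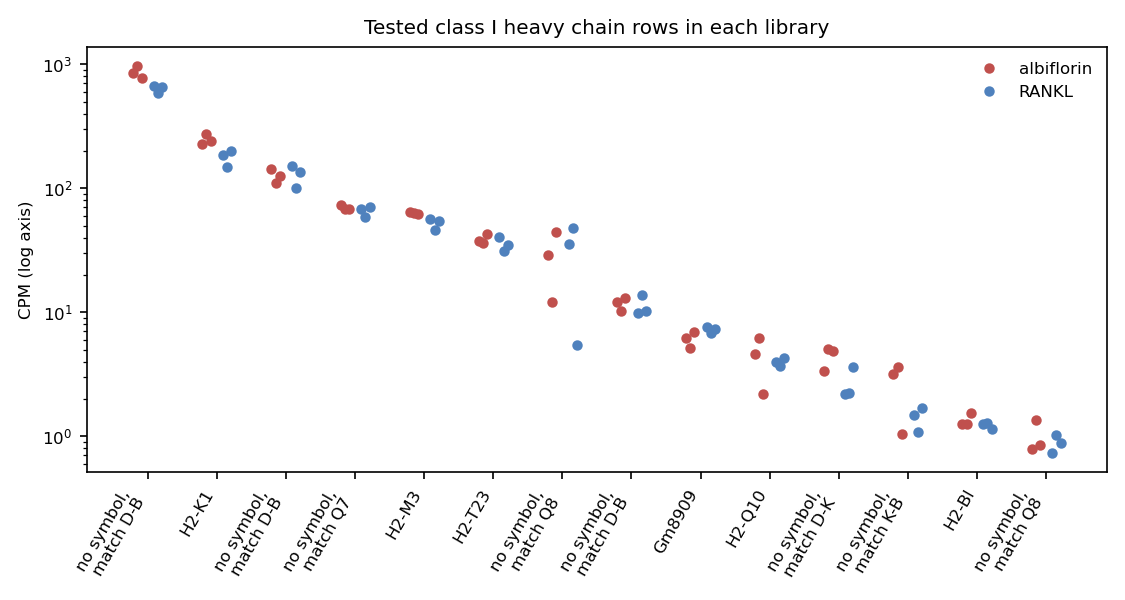
CPM (log axis) of the 14 tested class I heavy chain rows in each albiflorin library (left of each pair) and each RANKL library (right), ordered by mean level; rows without a symbol carry the class I chain of their deposited protein match, where D-B is the chain encoded by H2-D1. The leftmost row is the 910-base row, between 768 and 962 CPM in albiflorin libraries and between 588 and 668 CPM in RANKL libraries.

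B2m, the light chain shared by all class I molecules (MGP_C57BL6NJ_G0026827, chromosome 2, 129195593 to 129200990, plus strand), had 1947, 2232 and 1862 CPM in albiflorin libraries and 1606, 1486 and 1589 CPM in RANKL libraries. All albiflorin libraries were above all RANKL libraries, and the log2 fold change was 0.37 ± 0.0735 (SE; edgeR, adjusted p = 0.00243). With 860 bases, B2m is the shortest member, and protein-coding genes with an mRNA under 1000 bases had a median log2 fold change of 0.37 themselves, 58.8% of them called higher. With the mRNA-length trend removed the change of B2m was 0.03 (edgeR adjusted p = 0.759), and it was 0.02 without the trend on listed gene length (adjusted p = 0.826). Its call was also lost in limma on log2(FPKM + 1), at the same size of 0.36 (adjusted p = 0.0903). The count of B2m over that of the 910-base row was 2.3, 2.32 and 2.43 in albiflorin libraries and 2.4, 2.53 and 2.42 in RANKL libraries, with overlapping groups (exact permutation test, two-sided, p = 0.3).

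The transporter and tapasin did not pass the test. Tap1 (chromosome 17, 35480414 to 35491366) had 92.6, 83.2 and 94.4 CPM in albiflorin libraries and 88.9, 83.6 and 94.3 CPM in RANKL libraries, and the groups overlapped almost entirely. Its log2 fold change was 0.02 with an approximate 95% interval of -0.12 to 0.16 (edgeR, adjusted p = 0.876). Tap2, the second chain of the transporter, had 52.6, 55.4 and 49.8 CPM in albiflorin libraries and 49.5, 47 and 50.5 CPM in RANKL libraries, with a log2 fold change of 0.10 (interval -0.04 to 0.24; edgeR, adjusted p = 0.32) and of 0.15 once mRNA length was taken into account (adjusted p = 0.193). Tapbp, which holds class I molecules at the transporter, had 228, 225 and 237 CPM in albiflorin libraries and 219, 230 and 242 CPM in RANKL libraries. Its groups overlapped, and the interval of its log2 fold change ran from -0.12 to 0.12; with the mRNA-length trend removed the change was -0.01 (adjusted p = 0.959). In the plain fit the upper ends of the Tap1, Tap2 and Tapbp intervals lie under the lower end of the H2-K1 interval, 0.305. With the mRNA-length trend removed that lower end was 0.17. It stayed above the upper ends of Tap1 (0.14) and Tapbp (0.10) but not above that of Tap2 (0.28). The count of H2-K1 over that of Tapbp was 1.01, 1.22 and 1.02 in albiflorin libraries and 0.847, 0.639 and 0.819 in RANKL libraries, with no overlap (exact permutation test, two-sided, p = 0.1, the smallest possible). This ratio was chosen after the values were seen, and no length trend was removed from it. The mRNAs of H2-K1 and Tapbp are 1619 and 2898 bases long.

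Tap1 and Psmb9, which encodes a catalytic subunit of the immunoproteasome, are divergent neighbours whose RefSeq starts lie 226 bases apart, so the Tap1 sequence above is most of the stretch between them. In the deposited coordinates their rows overlap: Psmb9 runs from 35474849 to 35480625 and Tap1 starts at 35480414. Reads in the overlap may be shared or left out, which was not tested. Psmb9 averaged 74.81 ± 7.11 CPM with albiflorin and 52.84 ± 3.89 CPM with RANKL, a log2 fold change of 0.50 ± 0.0799 (SE; edgeR, adjusted p = 0.000649), while that of Tap1 was 0.02. The count of Psmb9 over that of Tap1 was 0.766, 0.998 and 0.747 in albiflorin libraries and 0.601, 0.582 and 0.598 in RANKL libraries. The groups did not overlap, with a log2 difference of 0.48 (exact permutation test, two-sided, p = 0.1, the smallest possible; chosen after the values were seen). With the mRNA-length trend removed, Psmb9 was still called (0.28, edgeR adjusted p = 0.0105) and Tap1 was at 0.02.

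Cd74, the class II invariant chain (MGP_C57BL6NJ_G0024881, chromosome 18, 62262211 to 62303090, plus strand), had 1177, 1243 and 1188 CPM in albiflorin libraries and 878, 883 and 927 CPM in RANKL libraries. The groups stood well apart and each was narrow. The log2 fold change was 0.42 ± 0.061 (SE; edgeR, adjusted p = 0.000388), and Cd74 was called under each setting tried, at 0.20 to 0.45, the lowest with the trend on listed gene length removed (adjusted p = 0.0182). H2-Aa, the alpha chain of the class II molecule I-A (chromosome 17, 35575840 to 35580923, minus strand), had 72, 64 and 57 counts in albiflorin libraries and 37, 45 and 58 counts in RANKL libraries. In CPM these were 4.75, 4.76 and 4.01 with albiflorin and 2.72, 2.87 and 3.91 with RANKL, so the groups did not overlap, by a narrow margin. Its log2 fold change of 0.51 ± 0.216 (SE; edgeR, adjusted p = 0.103) was as large as that of H2-K1 but not called at this depth, and it was 0.24 once the mRNA-length trend was removed (adjusted p = 0.527).

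Neither transcriptional activator passed the test. Nlrc5 (chromosome 8, 99392722 to 99451285) had 59.2, 55.9 and 59.7 CPM in albiflorin libraries and 63.8, 67.2 and 60.5 CPM in RANKL libraries. Every albiflorin library was below every RANKL library, but the log2 fold change of -0.13 ± 0.0682 was not called (SE; edgeR, adjusted p = 0.179). Its listed length of 7821 bases is the longest among the members, and with the mRNA-length trend removed its sign turned, to 0.09 (adjusted p = 0.339). Ciita (chromosome 16, 7434832 to 7487394) had 60, 58 and 81 counts in albiflorin libraries and 67, 90 and 93 counts in RANKL libraries. Its groups overlapped in CPM, and the log2 fold change was -0.28 with an approximate interval of -0.66 to 0.10 (edgeR, adjusted p = 0.318). It was -0.10 once mRNA length was taken into account (adjusted p = 0.788), -0.18 without albiflorin replicate 1 and -0.45 without albiflorin replicate 3, and none of these was called.

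**Figure D3:**
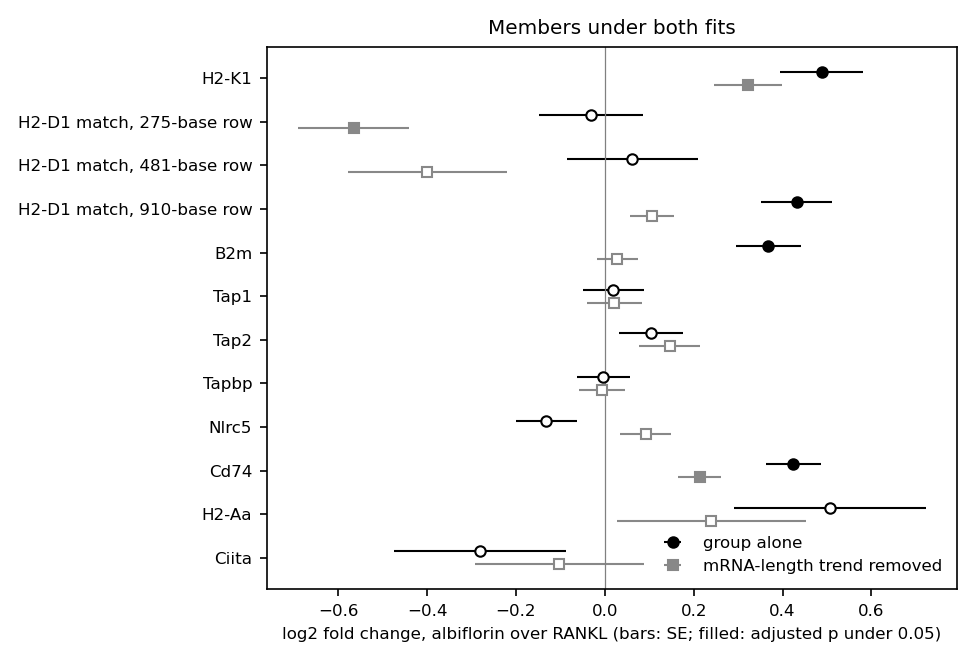
Log2 fold change of albiflorin over RANKL with SE for the 9 members and the 3 rows matched to H2-D1, in the plain fit (circles) and with the mRNA-length trend removed (squares); filled symbols have an edgeR adjusted p under 0.05. The 3 matched rows have no annotated mRNA, so their squares rest on the length of each piece. H2-K1 and Cd74 are filled in both, at 0.49 and 0.32 for H2-K1 and 0.42 and 0.21 for Cd74, while B2m is at 0.37 in the plain fit and 0.03 with the trend removed.

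The wider presentation pathway was read from lists of 111 symbols that include the members, of which 91 had a row and 74 were tested. Of these 74 genes, 21 were higher and 5 lower, with a median log2 fold change of 0.09, where 12.4% of all genes were called higher and 11.4% lower; the counts of each list below compare with the same shares. With the mRNA-length trend removed 10 were higher and 3 lower, where 4.84% and 5.4% of all genes were called, and the median was 0.03. The lists were chosen with earlier results known, and their counts are a description.

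Immunoproteasome and activator genes, which swap in subunits suited to making class I peptides, had 5 of 6 tested genes higher and 0 lower, with a median of 0.36. Psmb9, Psmb8 and Psmb10 encode the 3 catalytic subunits, and Psmb8 rose by 0.39 ± 0.0838 (SE; edgeR, adjusted p = 0.0039) and Psmb10 by 0.35 ± 0.101 (adjusted p = 0.0189) on the log2 scale, the last of them not called without albiflorin library 1 (0.35) or 2 (0.28) or RANKL library 1 (0.33) or 2 (0.29). Psme1 and Psme2, the subunits of the PA28 cap, rose by 0.37 ± 0.0772 (adjusted p = 0.00324) and 0.29 ± 0.0773 (adjusted p = 0.0123). Psme3, which forms a nuclear cap, was at -0.08 (adjusted p = 0.333). The mRNAs of the 5 called genes are 962 to 1628 bases long. Of protein-coding genes with an mRNA under 1000 bases 58.8% were called higher in the plain fit. From 1000 to under 2000 bases it was 28.5%, with a median of 0.18. With the mRNA-length trend removed Psmb9 and Psmb8 alone were called (0.28 and 0.22), the list's median was 0.11, and Psme2 turned to -0.02. Psme2 also lost its call without albiflorin library 1 (0.24), albiflorin library 2 (0.23) or RANKL library 2 (0.25).

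In the peptide loading complex and the trimming enzymes, 1 of 12 tested genes was higher and 2 were lower, with a median of 0.01, beside 12.4% of all genes higher and 11.4% lower. Pdia3, the disulfide isomerase that is bound to tapasin, averaged 796.4 ± 40.8 CPM with albiflorin and 683.4 ± 26.9 CPM with RANKL (log2 fold change 0.22 ± 0.0636, SE; edgeR, adjusted p = 0.0192). Its call was lost without albiflorin library 1 (0.23), albiflorin library 2 (0.17) or RANKL library 2 (0.19). Lnpep, an endosomal aminopeptidase that trims peptides for cross-presentation, averaged 64.46 ± 8.1 CPM with albiflorin and 100.5 ± 12.3 CPM with RANKL. It fell by 0.64 on the log2 scale (edgeR, adjusted p = 0.000434) and by 0.31 once the mRNA-length trend was removed (adjusted p = 0.00836). Nrd1, the peptidase nardilysin, fell by 0.19 (adjusted p = 0.0322), a call that was lost with the trend removed and when albiflorin library 1 or 2 or RANKL library 1, 2 or 3 was left out (-0.20 to -0.16). Calr and Canx, chaperones of the nascent heavy chain, were at 0.08 and -0.15 and were not called.

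Of 9 tested non-classical class I genes, H2-M3, whose product presents formylated peptides, was higher (0.27 ± 0.0773, SE; edgeR, adjusted p = 0.0185), and H2-T24 was lower (-0.31 ± 0.0792, adjusted p = 0.011). With the mRNA-length trend removed H2-M3 was at 0.07 (adjusted p = 0.529) and H2-T24 at -0.38 (adjusted p = 0.00443). H2-M3 also lost its call without albiflorin replicate 1 (0.25) or RANKL replicate 2 (0.19), and H2-T24 without RANKL replicate 3 (-0.26, adjusted p = 0.0538).

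Class II chains and chaperones had 2 of 7 tested genes higher, Cd74 and H2-Eb1, and 0 lower, with a median of 0.42. H2-Eb1, a class II beta chain, averaged 6.449 ± 1.67 CPM with albiflorin and 3.966 ± 0.222 CPM with RANKL, a log2 fold change of 0.70 ± 0.205 (SE; edgeR, adjusted p = 0.0205). It was not called with mRNA length taken into account (0.54, adjusted p = 0.103), nor without albiflorin replicate 1 (0.48), RANKL replicate 2 (0.73) or RANKL replicate 3 (0.66). H2-Ab1, the beta chain that pairs with H2-Aa, averaged 2.719 ± 0.595 CPM with albiflorin and 1.795 ± 0.41 CPM with RANKL, with a log2 fold change of 0.59 that was not called (adjusted p = 0.145). H2-DMa, part of the class II peptide editor, was at 0.11 and not called. In endosomal processing 3 of 8 genes were higher and 0 lower: the thiol reductase Ifi30 (0.36, adjusted p = 0.0016) and the cathepsins Ctss (0.31, adjusted p = 0.00324) and Ctsl (0.26, adjusted p = 0.00716). With the mRNA-length trend removed Ctsl alone was called (0.35, adjusted p = 0.0022), and with the gene-length trend removed no gene of that list was. The lengths used for Ctsl differ, at 4069.5 bases for the mRNA and 1971 bases for the listed gene. With the gene-length trend removed Ctsl was at 0.10 (edgeR adjusted p = 0.221).

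**Figure D4:**
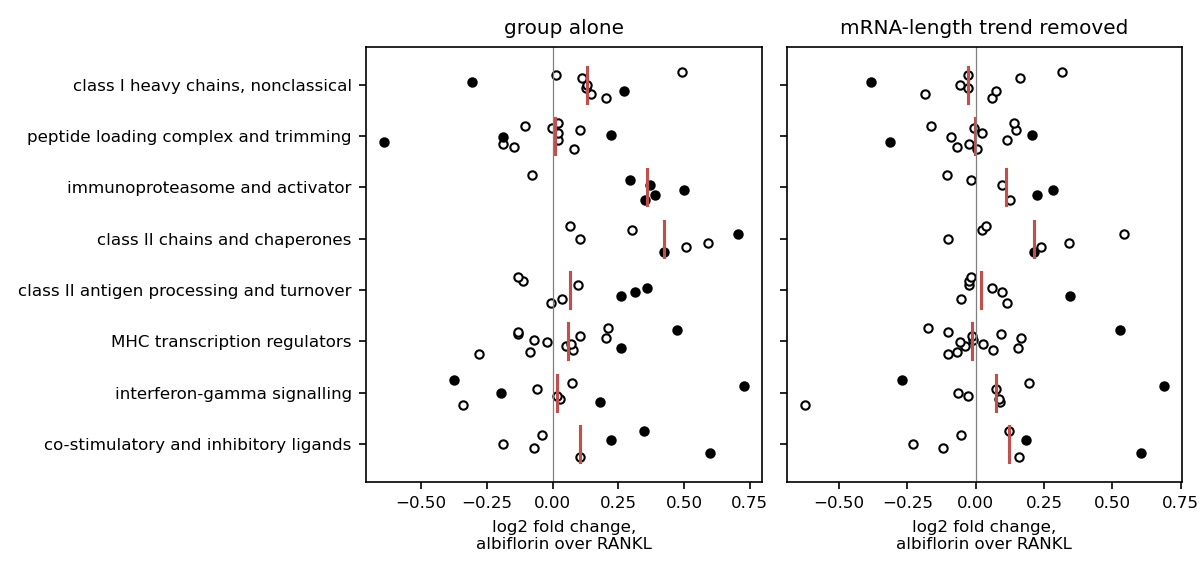
Log2 fold change of albiflorin over RANKL for each tested gene of 8 presentation lists (1 circle per gene, filled where the edgeR adjusted p is under 0.05), in the plain fit (left panel) and with the mRNA-length trend removed (right panel); red lines mark list medians. The immunoproteasome list has its median at 0.36 in the plain fit and at 0.11 with the trend removed, and the list of class II chains at 0.42 and 0.21.

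Among 14 tested regulators of MHC transcription, 2 were higher and 0 lower, a share of higher genes near that over all genes (12.4%), and the median was 0.06. The count of higher genes was 4 after removal of the trend on listed gene length and 1 once mRNA length was taken into account. Rfxank, a subunit of the RFX complex on the X box, averaged 7.956 ± 0.368 CPM with albiflorin and 5.726 ± 0.128 CPM with RANKL (log2 fold change 0.47 ± 0.149, SE; edgeR, adjusted p = 0.0299), and lost its call when any of the 6 libraries was left out. Hdac2, a histone deacetylase, rose by 0.26 ± 0.0731 (adjusted p = 0.0171) and was at 0.15 once the mRNA-length trend was removed (adjusted p = 0.109). Its call was lost without albiflorin library 1 (0.24), albiflorin library 2 (0.19) or RANKL library 2 (0.21). The interferon-response factors Irf1, Irf2 and Irf8 were at 0.05, 0.07 and -0.02 and were not called. Of 9 tested genes of interferon-gamma signalling, 2 were higher and 2 lower, beside 23.8% of all genes called in either direction. Socs3, a feedback inhibitor of cytokine receptors, averaged 39.59 ± 5.43 CPM with albiflorin and 23.94 ± 1.64 CPM with RANKL (0.73 ± 0.102, edgeR adjusted p = 0.000368). Stat2, a transducer of type I interferon signals, fell by 0.37 (adjusted p = 0.00211), and both kept their calls with the length trends removed. Ifngr1, a receptor chain (0.18, adjusted p = 0.0484), and the kinase Jak1 (-0.20, adjusted p = 0.0412) were called narrowly and not with the trends removed, nor in most fits that left out a library (0.14 to 0.17 for Ifngr1 and -0.19 to -0.17 for Jak1 where lost). The interferon-gamma target genes Gbp2, Gbp4, Cxcl9 and Socs1 were too low to be tested.

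Of 7 tested co-stimulatory and inhibitory ligands, which accompany presented peptides in T-cell contact, 3 were higher and 0 lower. Cd40 averaged 11.14 ± 1.55 CPM with albiflorin and 7.367 ± 0.367 CPM with RANKL (0.60 ± 0.143, edgeR adjusted p = 0.00694) and was at 0.60 once the mRNA-length trend was removed (adjusted p = 0.0138). It lost its call without albiflorin replicate 1 (0.48, adjusted p = 0.0529). Tnfsf9 was higher by 0.35 (adjusted p = 0.00847) and Icam1 by 0.22 (adjusted p = 0.0192). Tnfsf9 was at 0.12 and no longer called once mRNA length was taken into account (adjusted p = 0.292), and Icam1 was at 0.18 (adjusted p = 0.0427). Neither was called after removal of the trend on listed gene length, Tnfsf9 being at 0.08 (adjusted p = 0.482) and Icam1 at 0.12 (adjusted p = 0.168). Without albiflorin replicate 1 neither was called (0.31 and 0.17), nor was Icam1 without RANKL replicate 2 (0.18). Cd80, Cd86 and Cd274 were at -0.07, -0.19 and 0.11 and were not called.

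The genes whose log2 CPM followed that of Cd74 most closely over the 6 libraries, among 9563 protein-coding genes, were Ecm1 (Pearson r = 0.998), Atg5, H2afx and Wdr45 (0.997 each) and Stard5 (0.995). For H2-K1 they included Naa38 (0.997), Upf3a and Tpm3 (0.994 each) and a row without a symbol, MGP_C57BL6NJ_G0021081 (0.993). No member appears in either set, and values this high are a description of 6 points that come from the same libraries. In these bulk libraries fewer cells of a type and less RNA per cell cannot be told apart. Markers of other antigen-presenting cells were low: dendritic cell markers summed to 11.4 to 14.8 CPM in albiflorin libraries and 11.4 to 14.2 CPM in RANKL libraries. B cell markers summed to 1.49 to 2.6 CPM with albiflorin and 1.83 to 3.17 CPM with RANKL, with Ms4a1 and Pax5 at 0. T and NK cell markers reached 0.223 CPM with albiflorin and 0.382 CPM with RANKL at most, and fibroblast markers 0.396 CPM in albiflorin and 0.382 CPM in RANKL libraries. Osteoclast markers summed to 964 to 1108 CPM in albiflorin libraries and 829 to 844 CPM in RANKL libraries, and most of this sum was Car2, at a mean of 949.3 CPM with albiflorin and 776.5 CPM with RANKL. Of 7 tested osteoclast markers 2 were higher (Acp5 and Car2) and 0 lower, and Itgb3 was at -0.75 (edgeR adjusted p = 0.134). Once mRNA length was taken into account 0 of the 7 were called, Acp5 being at 0.08 (adjusted p = 0.651) and Car2 at 0.15 (adjusted p = 0.0928). With the trend on listed gene length removed 1 was higher, Car2 (0.17, edgeR adjusted p = 0.0485), and 0 were lower. The part of these markers in the values above was not tested.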

How the data were processed

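RNA was sequenced from 6 RAW264.7 samples, grouped by their titles into 3 albiflorin and 3 RANKL. The authors deposited whole-number counts per gene and a matching FPKM table, which equalled counts over the listed length and a library total. Per the submitters' processing notes HISAT2 2.2.1, featureCounts 2.0.6-p3, CASAVA 1.8, DESeq2 1.42.0 and fastp were named, without roles. Genome build and strand setting were not given in the sources used here; overlapping genes may share counts. Coordinates of rows are those of the deposited table.

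Counts were tested in edgeR 4.0.16 (R 4.3.3): filterByExpr, TMM scaling, quasi-likelihood F-test on group, Benjamini-Hochberg threshold 0.05 over 13158 genes; this was tested on simulated data. CPM use TMM-scaled library sizes. A length trend was removed per library by lowess (span 0.3, fitted above a mean log2 CPM of 3) on log length. It used either the listed gene length or the median length of principal transcripts in GENCODE M21, available for 82.1% of tested genes, with the listed length otherwise. Other settings were RLE scaling, DESeq2 1.42.0, other filters, limma 3.58.1 on FPKM, a replicate block and leaving out each library. Named genes are all members, in each list the 4 called genes of smallest p, and the 5 genes most correlated with Cd74 and with H2-K1 (mean CPM at least 5); others, such as Psmb10, were named after their values were seen. A few genes that these rules name are not reported here. Members and lists were chosen with earlier results of these data known. The 3 rows matched to H2-D1, and their sum, were added after seeing the data. Of the table's rows, 11512 had no symbol, 24 had names turned into dates and 825 were additional rows with 1.95 to 2.15% of counts; 5 list symbols were matched by description. Promoter windows are RefSeq's, and no motif was searched.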

Additional observations from a re-analysis of the deposited data

How the results depend on the processing

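Cd74 and H2-K1 kept their direction and call under every setting tried. B2m lost its call with either length trend removed and in limma on FPKM. Member counts were 3 higher and 0 lower, or 2 and 0 under those 4 settings. Over all genes, 1631 were higher and 1496 lower, against 945 higher with the gene-length trend removed and 637 higher beside 710 lower once the mRNA-length trend was removed. In limma 909 were lower on log2(FPKM + 0.1) and 901 on log2(FPKM + 1). Leaving out 1 library gave 984 to 1753 higher and 914 to 1644 lower; the lowest counts were without albiflorin replicate 1 (984 higher) and RANKL replicate 2 (914 lower). Psme2 turned to -0.02 with the mRNA-length trend removed. For other named genes 84 values under an alternative lost the call, most often those of Ifngr1, Jak1, Nrd1, Rfxank, Hdac2, Pdia3, Psmb10 and Psme2; the causes were not tested.

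Replicate numbers are shared by the groups, but same-numbered libraries did not deviate together (correlations 0.0219, -0.0433 and -0.0664). With the replicate number as a block 1358 genes were higher and 1214 lower, with 3 members higher and 0 lower. Depth limits Ciita and H2-Aa most, at 37 to 93 counts per library.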

Other observations

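Some class I rows without a symbol varied widely within groups. A row of 1037 bases matched to H2-Q8 had 442, 161 and 630 counts in albiflorin libraries and 479, 754 and 81 counts in RANKL libraries. A row of 599 bases matched to the K-B chain had 48, 49 and 15 counts in albiflorin libraries and 20, 17 and 25 counts in RANKL libraries. Another row matched to a class I chain, MGP_C57BL6NJ_G0040718 on chromosome 17, had 51, 68 and 69 counts in albiflorin libraries and 30, 35 and 54 counts in RANKL libraries, with overlapping groups in CPM and a log2 fold change of 0.71 ± 0.255 (SE; edgeR, adjusted p = 0.0544). A row of 754 bases matched to H2-Q7 had 1107, 923 and 969 counts in albiflorin libraries and 925, 919 and 1037 counts in RANKL libraries. Its log2 fold change was 0.10 with an SE of 0.0746 (edgeR, adjusted p = 0.382). With the mRNA-length trend removed it was at -0.27 (edgeR, adjusted p = 0.0211). This row has no annotated mRNA, so that fit took the length of the piece.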
